A study of Mus musculus with 8 samples.

Results

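The urea cycle and hepatocyte maturation enzymes are 9 of the 18193 genes named on the array: Cps1, Otc, Ass1, Asl and Arg1, which encode the enzymes of the urea cycle, and Tat, Pck1, G6pc and Hpd, which encode enzymes that hepatocytes use for amino acid breakdown and for making glucose. They were taken by gene symbol. All probe sets, the groups of short probes that each read a transcript, whose only symbol in the platform annotation was that of a member were included, 13 of the 45101 probe sets on the array. The RNA came from fetal livers of mouse embryos at E14.5, either wild type (WT, 4 arrays) or homozygous for a knockout of Eklf (Eklf-/-, KO, 4 arrays), the gene also named Klf1 that encodes the erythroid Krüppel-like factor. The Eklf-/- line was made on the B6 strain with a BAC construct and E2A-Cre mice, the cells were not cultured, and no other treatment was given in the labels. The knockout is in every cell of the embryo and the RNA is of whole fetal liver, so a difference in a hepatocyte gene is measured in a mixture of cells. In such a mixture, fewer hepatocytes and less of the RNA per hepatocyte cannot be told apart.

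The urea cycle turns ammonia into urea. In the mitochondrion Cps1 makes carbamoyl phosphate from ammonia and Otc joins it to ornithine to give citrulline. In the cytosol Ass1 and Asl convert citrulline to arginine, and Arg1 splits arginine into urea and ornithine. Tat takes the first step of tyrosine breakdown and Hpd the next, while Pck1 and G6pc catalyse an early and the last step of gluconeogenesis. In the liver, Tat, Pck1 and G6pc are known to come on around birth, whereas the fetal liver before that time is mainly a blood-forming organ in which hepatoblasts are a minority of the cells.

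In the KO fetal livers 4 of the 9 genes were lower, none was higher, 1 was tested and not called, and 4 lay below the tested range. The signal of Cps1 was at least 1.90-fold lower, that of Arg1 2.60-fold lower, that of Hpd 2.32-fold lower and that of Otc 2.06-fold lower on its brightest probe set. Asl did not pass the test, and Ass1, Tat, Pck1 and G6pc read below a signal of 100 in all 8 arrays on every probe set of their own. The signals are MAS5.0 values, an intensity for each probe set on a linear scale. Probe sets whose WT or KO mean lay above log2 of 100 were tested with limma on the log2 values, and a Benjamini-Hochberg adjusted p under 0.05 over all 23379 tested probe sets counted as called. Of the 13 probe sets of these genes 6 passed that minimum and 5 were called lower. Of all tested probe sets 17.7% were called lower and 34.4% higher, and the median log2 difference (KO minus WT) of all of them was 0.17. For the 5 called probe sets the highest KO array was lower than the lowest WT array, an arrangement that 17.4% of the tested probe sets showed. Cps1, 1 of the 4 genes called lower, passed the minimum through its WT arrays alone. Its call and its lack of overlap are therefore no support for a fall. Per the study's text the arrays of a genotype came from 4 embryos. The labels number the arrays and do not say that a number stands for an embryo.

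**Figure D1:**
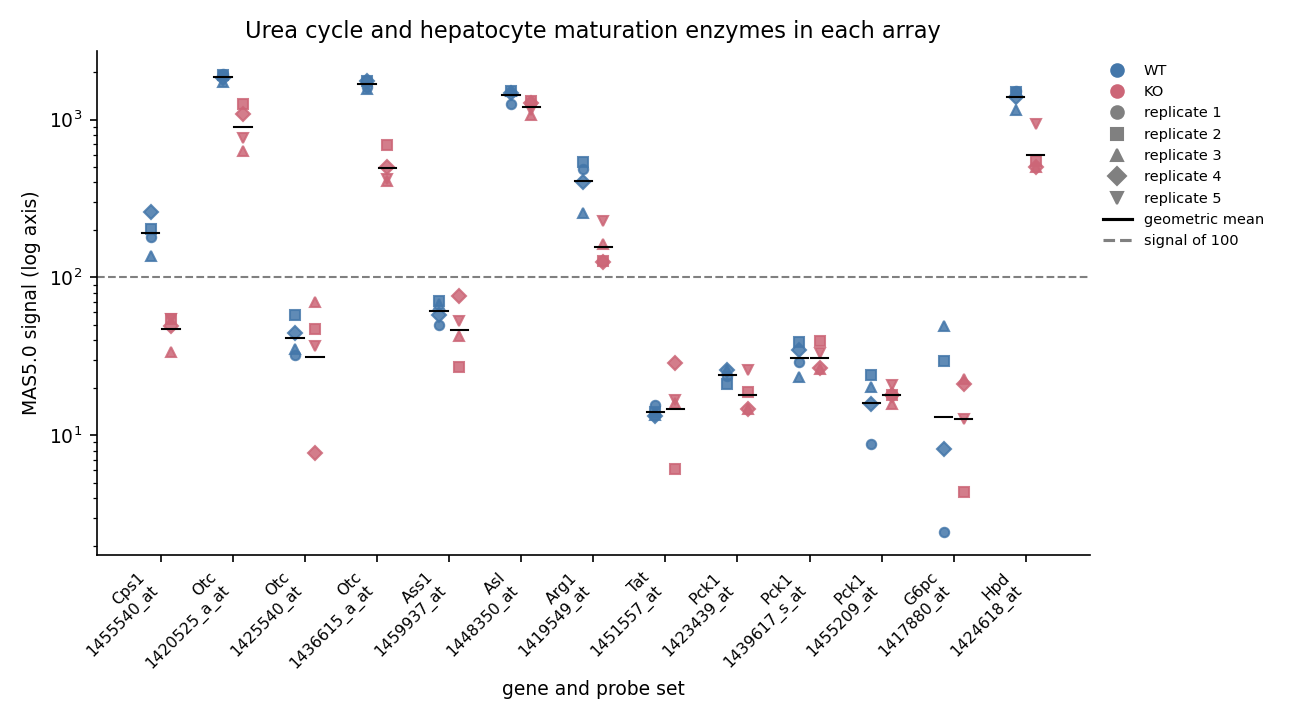
MAS5.0 signal on a log axis (y axis) of the 13 probe sets of the 9 genes (x axis), with a point for each WT (blue) and KO (red) array, a symbol for each replicate number, a black line at the geometric mean of each group and a dashed line at a signal of 100. The KO points of Cps1, Arg1, Hpd and the 2 bright Otc probe sets lie below all WT points, those of Asl overlap them, and 7 probe sets lie below the dashed line in all 8 arrays.

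The arrays carried a common scale, with a mean after trimming 2% at each end of 500.003 to 500.004. Klf1 read 13.87 to 14.04 in WT and 10.56 to 10.81 in KO on the log2 scale (log2 difference -3.29, SE 0.099, adjusted p = 5.9e-07 from limma). No source used here places its probe set relative to the deleted part of the gene. Bacterial hybridisation controls, added in the same amount to each array, were lower in KO (log2 mean 12.43 ± 0.084 in the 4 WT and 11.68 ± 0.13 in the 4 KO arrays, SD, difference -0.75, exact permutation test, two-sided, p = 0.029, the smallest p of the 70 assignments). The 18S ribosomal RNA probe sets read 11.83 to 12.03 in WT and 7.67 to 8.32 in KO on the log2 scale, and the part of this in the differences of the enzymes was not tested. WT replicate 1 stands apart in its sex-linked genes, with Xist at 13.03 against 5.37 to 6.84 in the other 7 arrays. The Y-linked genes Eif2s3y and Uty were at -0.062 and 4.35 in it, against 11.19 to 11.76 and 8.96 to 10.12. It thus read as female and the other 7 arrays, with all KO arrays among them, as male. The sample labels give a single code to the WT arrays and a different one to the KO arrays, and a difference in preparation cannot be told apart from one in genotype. The defining hepatocyte marker Alb and the fetal marker Afp were among the brightest signals of the tissue (45480 and 48919 in WT), and 15 of 15 hepatocyte markers on the array passed the minimum.

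Cps1, on chromosome 1 (67122426 to 67231267 in GRCm38.p6), encodes carbamoyl phosphate synthetase, the entry enzyme of the cycle. Its probe set (1455540_at) read, in order of replicate number, 180.0, 203, 137 and 259 in the WT arrays (numbers 1 to 4) and 54.6, 33.5, 49.5 and 54.6 in the KO arrays (numbers 2 to 5). The WT arrays lay above 100 and the KO arrays all below it, so that the KO signals are only a bound and the fold against 100 was at least 1.90. On the log2 scale the WT mean was 7.57 ± 0.38 and the measured KO mean 5.56 ± 0.33 (SD, n = 4 each). The adjusted p = 1.6e-04 from limma for the measured values is no support for a fall, since only high WT arrays brought Cps1 into the test. With the KO signals raised to 100 the difference was -0.92. Every WT array lay above 100, so at this setting the groups could not overlap, and no test is given for it. The fitted difference of the measured values, -2.01 (SE 0.23), has no defined size below 100.

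Otc, on the X chromosome (10252230 to 10321024), encodes ornithine transcarbamylase and is read by 3 probe sets. The brightest (1420525_a_at) read 1953, 1909.8, 1726 and 1837 in WT and 1263, 633, 1081 and 767 in KO replicates 2 to 5, a log2 difference of -1.04 (SE 0.21, adjusted p = 0.0033 from limma). A second bright probe set (1436615_a_at) read 1618, 1762, 1565 and 1756 in WT and 688, 409, 502 and 420.5 in KO, a log2 difference of -1.76 (SE 0.17, adjusted p = 7.2e-05 from limma). Both fell without overlap of the groups, and on both the KO arrays spread more (SD 0.45 and 0.35) than the WT arrays (SD 0.078 and 0.086, n = 4 each). The second probe set fell further than the first (log2 difference -0.72 between them within arrays, exact permutation test, two-sided, p = 0.029, the smallest possible), so the size of the fall in Otc depends on the probe set, from 2.06-fold to 3.39-fold. The third probe set (1425540_at) read 32.4 to 58.0 in WT and 7.73 to 70.3 in KO, below 100 throughout. The WT array with high Xist read the highest Otc signal of the group on the first of these probe sets and a middle one on the second, and without that array the difference on the first was -1.01 (adjusted p = 0.010 from limma).

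Arg1, on chromosome 10 (24915207 to 24927470), encodes liver arginase, which closes the cycle and is also known from alternatively activated macrophages. Its probe set (1419549_at) read 484, 542, 255 and 405 in WT and 128, 162, 126 and 229 in KO. The highest KO array, replicate 5, came close to the lowest WT array, replicate 3, and the groups did not overlap. The WT mean on the log2 scale was 8.66 ± 0.48 and the KO mean 7.29 ± 0.40 (SD, n = 4 each), a difference of -1.38 (SE 0.27, adjusted p = 0.0031 from limma). As for other cells, of 12 macrophage markers, 1 was called lower (Timd4, log2 difference -1.23), 10 were tested and not called and 1, Cd163, lay below 100 in both group means. Their summed signal was 20847 to 26178 in WT and 13873, 18128, 16613 and 29947 in KO replicates 2 to 5. Replicate 5 was the highest KO array here and for Arg1, and also for Hpd and for the mean log2 signal of the hepatocyte markers. The 3 brightest of them, Csf1r, Lyz2 and Vcam1, had log2 differences of -0.42, 0.022 and -0.14. C1qb, C1qc and Cd5l were at -0.77, -0.76 and -0.60, and Cd68 was at 0.59. The remaining tested markers, Adgre1, Mrc1 and C1qa, were at -0.019, -0.26 and -0.43, and the median of the list was -0.42. The calls of this list depended on scaling, with 7 of 11 lower with the 75th percentile, 4 lower with poly-A controls, and 4 higher and 1 lower with hybridisation controls. Among 5 markers of alternatively activated macrophages, Chil3, Retnla, Mgl2 and Clec10a lay below 100 in both group means and Mrc1 did not pass the test (-0.26). The part of macrophages in the Arg1 difference was not tested.

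Asl, on chromosome 5 (130011258 to 130024381), encodes argininosuccinate lyase and was the tested urea cycle gene that was not called. Its probe set (1448350_at) read 1258, 1514, 1524 and 1470.4 in WT and 1309, 1076, 1270.0 and 1152 in KO. The groups overlapped through WT replicate 1, and the log2 difference was -0.26 (95% interval -0.52 to -0.0083, adjusted p = 0.077 from limma). Ass1, on chromosome 2 (31470270 to 31520670), encodes argininosuccinate synthetase, and its own probe set (1459937_at) read 50.1 to 70.7 in WT and 27.0 to 75.9 in KO. A brighter probe set (1416239_at) carries both Ass1 and Gm5424 in the annotation and was given to neither gene. It read 1388, 1235, 1496 and 1446 in WT and 1513, 1494, 1462 and 1708 in KO, with overlapping groups, a log2 difference of 0.15 and an adjusted p = 0.25 from limma. The low signal on the single-symbol probe set is thus no measure of how much Ass1 RNA the liver holds.

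A contrast with Asl within each array is the same under any scaling by 1 factor per array, which quantile normalization is not. Relative to Asl of the same array, the log2 differences of the bright Otc probe sets were -0.78 and -1.50, each without overlap (exact permutation test, two-sided, p = 0.029 for each). Cps1, with its KO signals raised to 100, was at -0.66 with overlapping groups (exact permutation test, p = 0.057). The difference of Arg1 was -1.11 and that of Hpd -0.95, with overlapping groups (exact permutation test, p = 0.057 for each). With Cps1 at this bound the permutation p adjusted over the 5 contrasts was 0.057 for each, the Otc probe sets included, and none passed. The Otc p of 0.029 is the smallest possible, so whether Otc passed depended on the other contrasts, Cps1 at its bound included. After this adjustment unequal change relative to Asl is not established, and the contrasts do not show that Asl kept its level.

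Hpd, on chromosome 5 (123171807 to 123182723), encodes the dioxygenase that follows Tat in tyrosine breakdown. Its probe set (1424618_at) read 1524, 1494, 1157 and 1392 in WT and 547, 500.1, 499 and 933 in KO. All KO arrays lay below all WT arrays, with KO replicate 5 well above the other KO arrays, and the log2 difference was -1.21 (SE 0.21, adjusted p = 0.0016 from limma), or -1.43 without that array. Tat itself, on chromosome 8 (109986078 to 109999804), encodes tyrosine aminotransferase and read 13.3 to 15.5 in WT and 6.13 to 28.6 in KO. Hpd was therefore measured well above 100 in a tissue where the array gave Tat no signal above that level.

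Pck1 and G6pc were at the bottom of the range too. Pck1, on chromosome 2 (173153073 to 173159274), encodes cytosolic phosphoenolpyruvate carboxykinase, and across its 3 probe sets the signals ran from 8.75 to 38.8 in WT and from 14.6 to 39.3 in KO. G6pc, on chromosome 11 (101367716 to 101377903), encodes the catalytic subunit of glucose-6-phosphatase and read 2.43 to 48.9 in WT and 4.35 to 22.6 in KO. At these signals the groups overlapped for every probe set, no fold is given, and no difference was detected. When all probe sets were tested without the minimum, the adjusted p from limma was 0.42 for Ass1, 0.93 for Tat and 0.99 for Pck1 and G6pc.

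Otc and Hpd were lower relative to the hepatocyte markers of the same arrays as well. Arg1 was called lower there by limma (adjusted p = 0.0070) but not by the permutation test. Cps1 was lower there at a bound only, with all KO signals set to 100, so that its KO values vary with the markers alone. Relative to Asl and to the hybridisation controls the groups of Cps1 overlapped at the same bound. Of 16 listed markers of hepatoblasts and hepatocytes, 15 were on the array, 11 were called lower and 2, Apob and Dlk1, higher, with a median log2 difference of -0.50. The largest falls were those of Apoa2 (-0.71) and Apoa1 (-0.70), and Apob and Dlk1 were at 0.62 and 0.34. The direction of that list depended on scaling, since after quantile normalization none was lower and 2 were higher, and with hybridisation control scaling 6 were higher and none lower. The 3 brightest, Afp, Alb and Ttr, had log2 differences of -0.59, -0.63 and -0.67 as deposited. After quantile normalization Afp, Alb and Ttr were at -0.0069, -0.074 and -0.13, and none was called. The top of the scale was itself lower in KO. No signal of a KO array exceeded 39185.3, while the highest signal of every WT array was 54913.6 or more. The part of this in the fall of the brightest markers was not tested. The mean log2 signal over the 15 markers was 13.85 ± 0.038 over WT arrays and 13.49 ± 0.054 over KO arrays (SD, n = 4 each), a difference of -0.35 (exact permutation test, p = 0.029). This mean includes Apob and Dlk1, which were higher, and Alb, Afp and Ttr fell further than it. The sizes of the contrasts with it therefore depend on the markers chosen. Relative to this mean, Cps1 with its KO signals raised to 100 was at -0.57. No test is given for it, since its KO values vary with the markers alone. The log2 difference was -0.68 and -1.41 for the bright Otc probe sets and -0.86 for Hpd, each without overlap (exact permutation test, two-sided, p = 0.029 for each). Their adjusted permutation p was 0.043 over 6 contrasts, a value that counts Cps1 at its bound among the 6. Arg1 was at -1.02 with overlapping groups (exact permutation test, p = 0.057, adjusted p = 0.069), and Asl was at 0.092, its groups overlapping (exact permutation test, p = 0.37, also 0.37 adjusted).

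**Figure D2:**
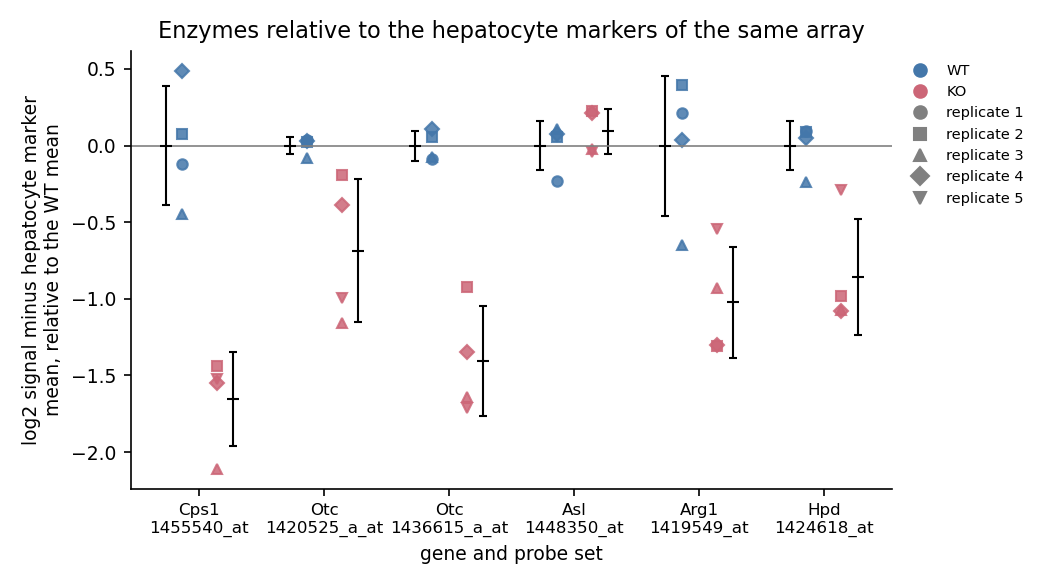
Log2 signal of the 6 tested probe sets minus the mean log2 signal of 15 hepatocyte markers in the same array, set to 0 at the WT mean (y axis), with a point for each WT (blue) and KO (red) array and bars of mean ± SD (n = 4). The KO points of Cps1 are measured signals below 100. Cps1, both Otc probe sets and Hpd lie lower in every KO array than in any WT array, Arg1 overlaps in KO replicate 5 and WT replicate 3, and Asl overlaps throughout.

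How far these genes fell depended on the scaling of the arrays. The count of called genes that were lower was 5 of 5 after quantile normalization and with a shared 75th percentile, where Asl joined the other 4, and 4 with poly-A control scaling. When the hybridisation controls set the scale, the second probe set of Otc was still called lower by limma (-1.01, adjusted p = 0.0013). Cps1 was called there on its measured values (adjusted p = 0.0019), but with signals below 100 raised to 100 its difference relative to these controls was -0.18 with overlapping groups (exact permutation test, two-sided, p = 0.46). There the brightest probe set of Otc, Arg1 and Hpd were at -0.29, -0.63 and -0.46 (adjusted p = 0.30, 0.070 and 0.097 from limma) and Asl was called higher at 0.49. The share of lower calls among all calls moved as well, from 34.0% as deposited to 50.7% after quantile normalization, 59.3% with the 75th percentile and 2.82% with hybridisation controls. Over every tested probe set the median difference was -0.033, -0.12 and 0.95 on the log2 scale under these scalings, and 0.075 with poly-A controls.

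**Figure D3:**
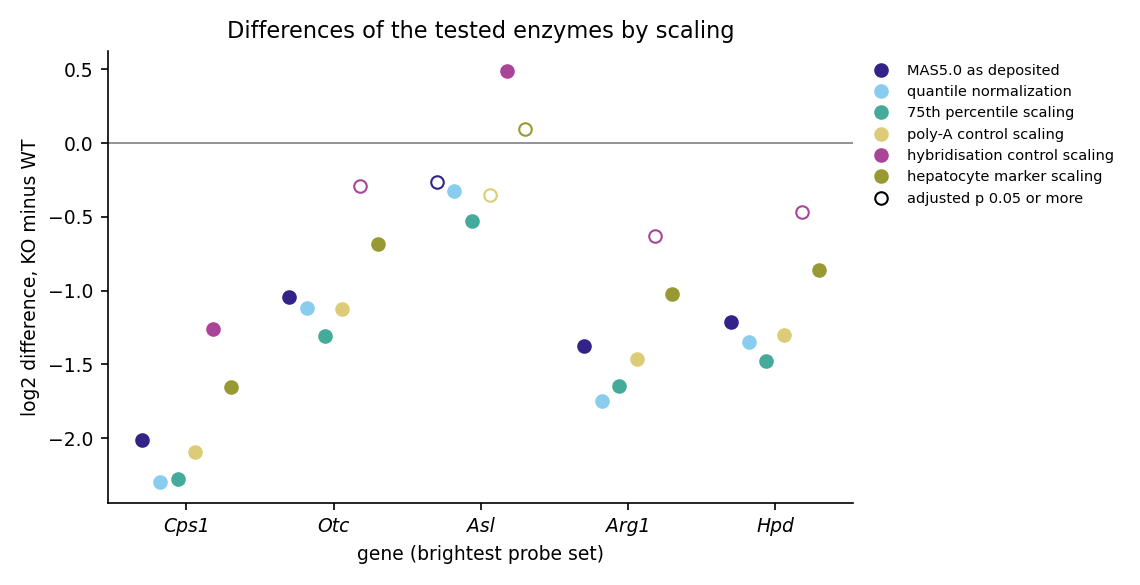
Log2 difference (KO minus WT, y axis) of the brightest probe set of each tested gene (x axis) under 6 scalings of the arrays, with filled points where the adjusted p from limma was under 0.05 and open points elsewhere. Cps1, drawn from measured KO signals below 100, is below 0 and filled under all 6, Otc, Arg1 and Hpd are open with hybridisation control scaling, and Asl lies above 0 with hybridisation control and hepatocyte marker scaling.

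The promoters of Otc and Hpd are shown because both genes were called lower and both have an entry in the RefSeq promoter table (GRCm38.p6), as do Ass1, Tat, Pck1 and G6pc. Each window runs from 250 bases before to 50 bases after a transcription start, 5′ to 3′ on the strand of the gene, which is chrX:10252055-10252354 on the plus strand for Otc and chr5:123182674-123182973 on the minus strand for Hpd. Capitals mark CACCC, the core of the motif that EKLF binds, on either strand (GGGTG where it lies on the other strand).
Otc: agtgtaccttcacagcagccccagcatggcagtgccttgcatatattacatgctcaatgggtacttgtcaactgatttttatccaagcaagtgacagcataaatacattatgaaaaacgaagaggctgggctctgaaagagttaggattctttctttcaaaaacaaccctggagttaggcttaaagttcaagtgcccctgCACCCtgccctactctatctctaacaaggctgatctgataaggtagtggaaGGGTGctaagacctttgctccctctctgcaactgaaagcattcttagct
Hpd: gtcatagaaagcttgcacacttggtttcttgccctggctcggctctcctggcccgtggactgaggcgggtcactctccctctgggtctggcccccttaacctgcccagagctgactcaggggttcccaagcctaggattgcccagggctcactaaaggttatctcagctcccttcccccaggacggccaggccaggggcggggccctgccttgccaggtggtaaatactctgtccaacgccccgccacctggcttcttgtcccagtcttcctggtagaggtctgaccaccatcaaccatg
The Otc window holds 2 matches and the Hpd window none, and of the 6 windows of these genes 5 hold at least 1. Among all 32851 RefSeq windows 57.5% hold a match and 25.7% hold 2 or more. A match of 5 letters describes the sequence only, and a window with none says nothing about EKLF at that gene.

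The partners of the urea cycle moved in both directions. Of 10 listed genes 8 were on the array and 7 were tested, of which 3 were called lower and 1 higher, with a median log2 difference of -0.0079. These counts and those of the lists that follow stand beside 17.7% lower and 34.4% higher among all tested probe sets, as deposited. Nags, which makes the activator that Cps1 requires, was lower (-0.85, SE 0.12, adjusted p = 4.8e-04 from limma). Slc25a15, which exchanges ornithine and citrulline across the mitochondrial membrane, was lower with overlapping groups (log2 difference -0.48, adjusted p = 0.047), and so was Glul, glutamine synthetase, without overlap (-0.73, adjusted p = 0.0053). Slc25a13, which exports the aspartate used by Ass1, was higher by 0.46 (adjusted p = 0.0058), a call lost with the 75th percentile (0.19, adjusted p = 0.14) and with poly-A controls (0.37, adjusted p = 0.11). The call of Slc25a15 was lost after quantile normalization (adjusted p = 0.058), with poly-A controls (0.13) and with hepatocyte marker scaling (0.58). Glud1, Oat and Slc7a2 did not pass the test, with -0.0079, 0.064 and 0.41, and Arg2, the mitochondrial arginase, lay below 100 in both group means. With hybridisation control scaling none of the 7 was lower and 4 were higher, Nags being at -0.10 and Glul at 0.014, so the direction of this list is not independent of scaling.

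In tyrosine and phenylalanine breakdown 3 of 5 tested genes were lower and none higher (median log2 difference -0.47). Hgd, which takes the step after Hpd, was lower, at -1.07 on the log2 scale (SE 0.17, adjusted p = 8.7e-04 from limma). Pcbd1, which regenerates the cofactor of phenylalanine hydroxylase (-0.87, adjusted p = 0.0011) and Fah, the last enzyme (-0.47, adjusted p = 0.045, with overlapping groups), were lower too. Gstz1 (-0.29) and Qdpr (-0.13) did not pass. With hybridisation control scaling none of the 5 was lower and Gstz1 and Qdpr were called higher, while Hgd was at -0.32.

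In gluconeogenesis 2 of 9 tested genes were lower and 2 higher (median log2 difference -0.074), beside 17.7% lower and 34.4% higher among all tested probe sets. Pcx, pyruvate carboxylase, which opens the pathway, was lower, at -1.16 on the log2 scale (SE 0.18, adjusted p = 7.4e-04 from limma), and Mdh1, cytosolic malate dehydrogenase (-0.58, adjusted p = 0.0061). Pck2, the mitochondrial form of phosphoenolpyruvate carboxykinase, was higher by 0.66 on the log2 scale (adjusted p = 0.016) and Got1, cytosolic aspartate aminotransferase, by 0.75 (adjusted p = 0.0019). The signals of Pck2 (1209 in WT and 1904 in KO) were thus in the tested range, unlike those of Pck1. With hybridisation control scaling none of the 9 was lower and 6 were higher, with Pcx at -0.42. The call of Pck2 was lost with the 75th percentile (0.39, adjusted p = 0.091) and that of Mdh1 after quantile normalization (-0.25, adjusted p = 0.18).

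Of 10 transcription factors and coactivators known to act on genes of this kind, 2 were higher and none lower (median log2 difference 0.20, but -0.13 after quantile normalization and -0.067 with the 75th percentile, each with 1 lower). Among all tested probe sets 17.7% were lower and 34.4% higher as deposited. With hybridisation controls 10 of 10 regulators were higher, and with hepatocyte marker scaling 7. Cebpb was higher by 1.45 (SE 0.30, adjusted p = 0.0038 from limma) and Creb1 by 0.83 (SE 0.12, adjusted p = 7.7e-04), both under all 6 scalings. Hnf4a (-0.20, 95% interval -0.57 to 0.17) and Cebpa (-0.074, 95% interval -0.45 to 0.30), factors of hepatocyte identity, did not pass the test, nor did Nr3c1, the glucocorticoid receptor (0.27). Hnf4a was called lower with the 75th percentile (-0.46, adjusted p = 0.041 from limma) and higher with hybridisation controls (0.55, adjusted p = 0.031), where Cebpa was higher too (0.67, adjusted p = 0.013). Of other cell types, 6 of 6 erythroid markers on the array were lower, among them Ank1 (-3.02), Epb42 (-2.25) and Tfrc (-1.73), and 6 of 8 endothelial markers were higher, among them Pecam1 by 1.73, Kdr by 1.19 and Tek by 0.63 on the log2 scale. The groups of Tek overlapped. Its limma call was lost after quantile normalization (adjusted p = 0.22), with the 75th percentile (0.19) and with poly-A controls (0.14). With the 75th percentile 3 endothelial markers were higher and 1 lower, and with hybridisation controls all 8 were higher. Their part in the differences of the enzymes was not tested.

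**Figure D4:**
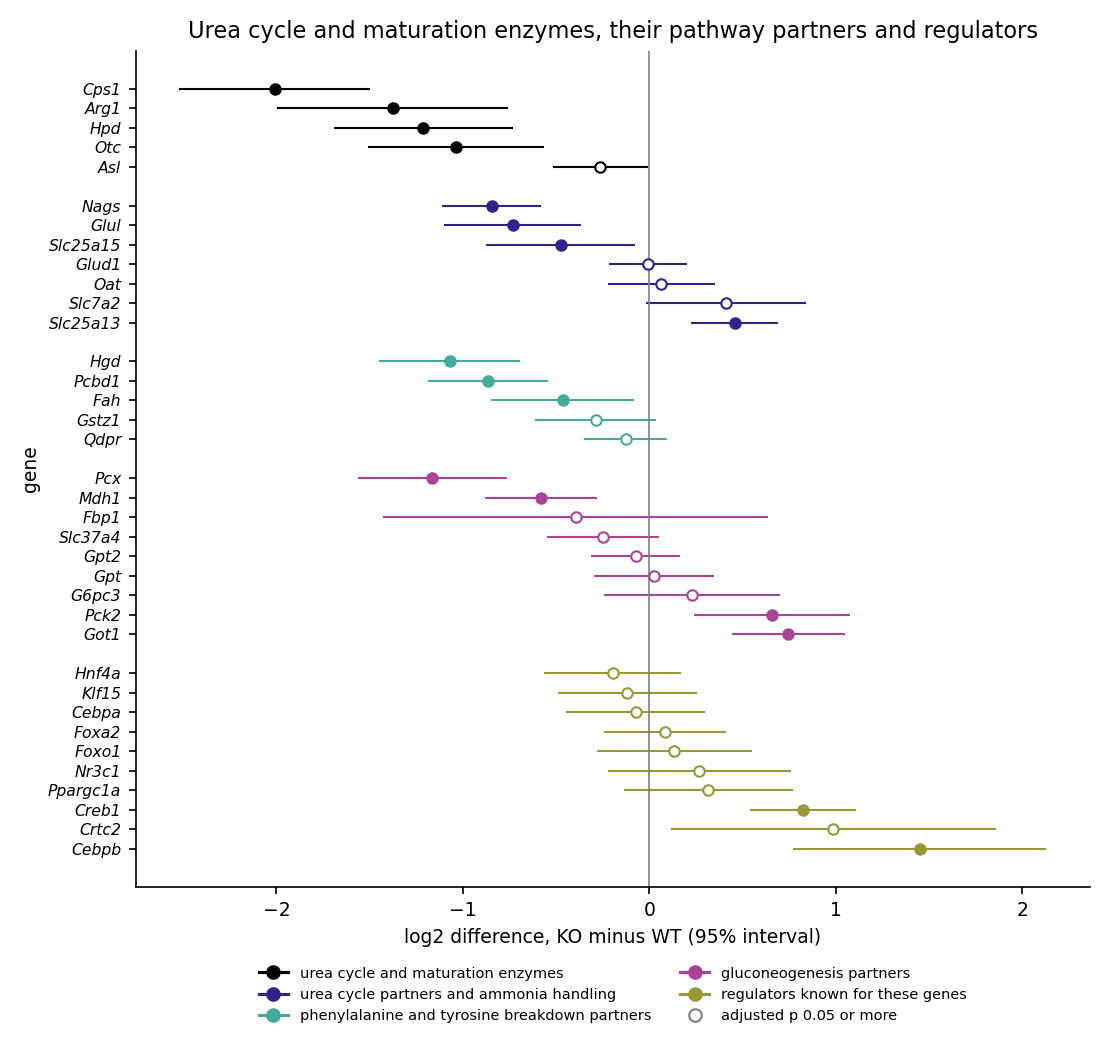
Log2 difference (KO minus WT, x axis) with its 95% interval from limma for the tested genes (y axis) among the urea cycle and maturation enzymes, their partners in 3 pathways and 10 regulators, as deposited. Filled points had an adjusted p under 0.05 over all tested probe sets, open points 0.05 or more, also where the unadjusted interval leaves out 0, as for Asl and Crtc2.

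The genes whose signal followed Asl, the tested enzyme with the brightest mean, most closely over the 8 arrays were Gpat4, Sdhd and Rnd2 (Pearson r = 0.99, 0.98 and 0.98). Those closest to Cps1 were Ypel4, Hc and Wfdc3 (r = 0.99 for each), an order that rests on KO signals of Cps1 below 100. These were the highest among 11291 genes compared, each by its brightest tested probe set. With 4 arrays a genotype the values follow the split between WT and KO to a large part, and are given as a description.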

How the data were processed

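RNA from the livers of 4 WT and 4 Eklf-/- embryos was read on Affymetrix mouse arrays. What the authors deposited is a MAS5.0 intensity on a linear scale for each of 45101 probe sets. MAS5 and R 3.0.2 are named in the submitters' processing notes. Of the probe sets 34945 have 1 gene symbol, 932 several, 9160 none and 64 are controls. Identical values in any 2 arrays numbered at most 1.

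Values were log2-transformed with no pseudocount. The 23379 probe sets whose mean exceeded log2 of 100 in WT or in KO, controls left out, entered limma (lmFit and eBayes, two-sided, with a genotype term alone) with Benjamini-Hochberg adjustment. A gene is represented by its single-symbol probe set with the highest mean, and a fold against a group mean below 100 is written as at least. For single values an exact permutation test over the 70 assignments was used. From each list, called genes were named (at most 3 in each direction), and the 3 brightest of the macrophage and hepatocyte lists. Genes named without a call, Klf1 and the sex-linked genes apart, and the contrasts with Asl and with the hepatocyte markers were picked with their values in view. The members and lists were chosen with earlier results of these data known. The limma code was first tested on simulated data with known changes. The precision is limited by the number of arrays. Positions are those of RefSeq genes in GRCm38.p6, matched by gene ID for all 9 genes.

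The alternatives were 4 scalings, pseudocounts of 16 and 64, no minimum or a minimum of 200, trend and robust options, the methods' t-test, the replicate number as a block, each array left out and the mean of a gene's probe sets. Hepatocyte marker scaling, and raising Cps1 signals below 100 to 100, were added after seeing the data. The software was limma 3.58.1 under R 4.3.3, and pandas 2.3.3 and matplotlib 3.10.9 under Python 3.11.15.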

Additional observations from a re-analysis of the deposited data

Results flagged for a closer look

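For Hpd, KO replicate 5 lay far from the other 3 KO arrays, at 9.87 on the log2 scale against 8.96 to 9.10, a gap that took 0.85 of the range of the group. Chance flags about 1 in 20 groups, and 26 groups of 4 arrays were examined. Without that array the log2 difference of Hpd was -1.43 (adjusted p = 1.7e-04 from limma).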

How the results depend on the processing

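Cps1 was called lower under the 20 alternatives that tested it, but on measured KO signals below 100, so these calls say little of stability. A minimum of 200 left it untested, and raised to 100, a setting chosen after seeing the data, its KO signals overlapped WT relative to Asl and to the hybridisation controls. Otc, Arg1 and Hpd were called lower under 20 of 21, all but hybridisation control scaling. Asl was called lower with quantile normalization (-0.32) and the 75th percentile (-0.53), reached 0.49 with hybridisation control scaling, where it was called higher, and 0.092 with hepatocyte marker scaling. With hybridisation control scaling 1 gene was called lower, 1 higher, and 19955 probe sets were called in all, against 12195 as deposited. The cause was not tested. With an array left out the calls were 4 lower and 0 higher each time, and 10626 to 12190 probe sets were called. The replicate numbers 2, 3 and 4 occur in both groups, but arrays of the same number did not deviate together (r = -8.4e-04, -0.082 and -0.027), and 0 of 6 correlated best with their own number. With the replicate block 7780 probe sets were called, and the calls of these genes were the same, 4 lower and 0 higher, in limma. Signals below 100 limit what can be said of Ass1, Tat, Pck1 and G6pc.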
